A study of Mus musculus with 12 samples.

Results

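The genes described here encode cardiac transcription factors and a coactivator that work beside the GATA and T-box factors: Nkx2-5, Isl1, Hand1, Hand2, Mef2a, Mef2c, Mef2d, Srf and Myocd. These 9 genes were taken from a fixed list of names, and the measurement is the list of BRG1-binding regions in wild-type cardiac precursors (CPs). Of the 3473 distinct regions in that list, 10 lay within 100 kb of one of the 9 genes, out of 22350 protein-coding genes on the chromosomes that carried regions. BRG1 is the ATPase of BAF chromatin remodeling complexes. The CPs were derived from W4/129S6 mouse embryonic stem cells of wild-type genotype, which were grown as embryoid bodies with VEGF, activin and BMP4 and then as monolayers with FGFs. BRG1 was immunoprecipitated after crosslinking with disuccinimidyl glutarate and formaldehyde and digestion with MNase. Behind the list stand 2 BRG1 ChIP libraries and 1 input library, and no use was made of the remaining 9 of 12, which came from wild-type cardiomyocytes (CMs), BAF170 KO CPs, BAF170 KO CMs and BAF60c KO CMs.

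NKX2-5 is a homeodomain protein of the NK family and ISL1 a LIM-homeodomain protein of cardiac precursors, while HAND1 and HAND2 are basic helix-loop-helix factors of the developing ventricles. MEF2 proteins and SRF carry a MADS domain and bind A/T-rich boxes in muscle genes, and myocardin, the product of Myocd, is a coactivator of SRF. BAF complexes move nucleosomes. The paper cites a genetic interaction of Brg1 with genes of transcription factors tied to congenital heart disease. It also reports that its BRG1 purifications did not recover the cardiac transcription factors earlier proposed as partners.

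BRG1-binding regions lay at the promoters of Isl1, Mef2d and Srf, that is, within 1 kb of an annotated transcription start site (TSS). A further region lay in coding sequence of Nkx2-5, so that 4 of the 9 genes had a region in the gene body. Myocd had regions upstream of the gene only and Mef2c had a region past its 3' end only. Hand1 had regions for which TSSs of other protein-coding genes were closer. Within 100 kb of Hand2 and Mef2a, no region was listed. Counted by gene, 3 of 9 had a region at a promoter, where 11.9% of all protein-coding genes did (95% Wilson interval 11.5% to 12.4%, counting error only). In the body the count was 4 of 9, where 12.3% of protein-coding genes had a region, and within 100 kb it was 7 of 9, where 40.4% did. The genes were chosen with earlier results of this list known, and the counts are descriptions without a test.

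**Figure D1:**
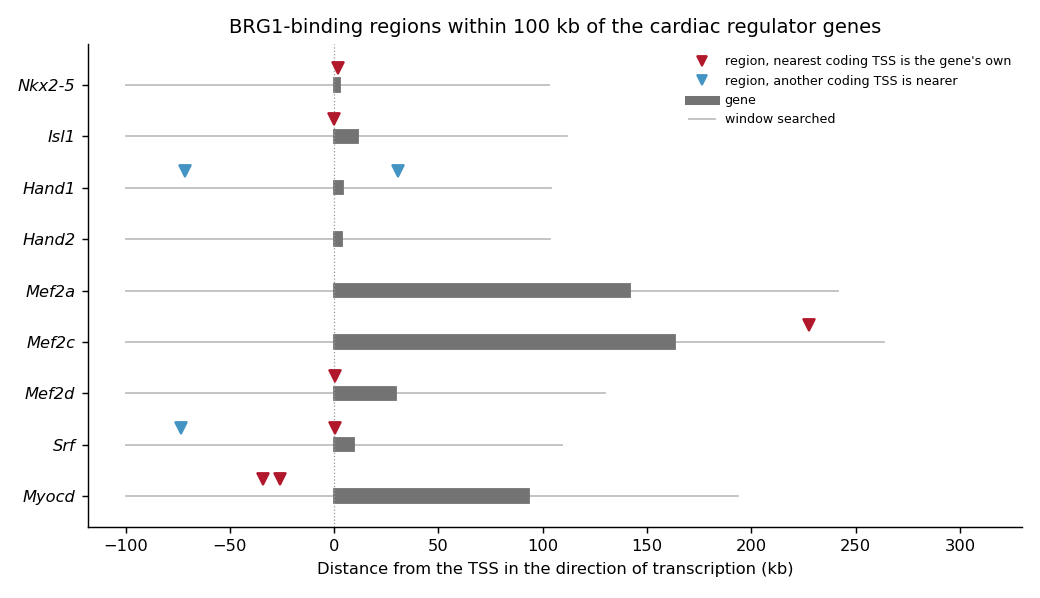
BRG1-binding regions (triangles) along the 9 genes, with distance from the 5'-most TSS in kb on the x axis and negative values upstream. Red marks the 7 regions whose nearest protein-coding TSS was the gene's own, and blue the 3 nearer to another protein-coding TSS. Grey bars are the genes and thin lines the windows searched. Isl1, Mef2d, Srf and Nkx2-5 carry a region at the 5' end or in the gene, and Hand2 and Mef2a carry none.

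The list gives positions only. It has no height, fold enrichment or P-value, no value per library and an unknown depth, so that no spread between replicates can be given and a gene without a listed region may be unbound or below the threshold. The identity of the cells could not be checked against marker genes, since no expression was measured in these libraries. Some regions were on more than 1 row, and each is counted once here. Among the 10 regions, 5 were on 2 rows and 5 on 1 row, where 22.8% of all distinct regions were on more than 1 row.

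The promoter regions of Isl1, Mef2d and Srf and the exonic region of Nkx2-5 are shown first, since they are the regions that overlap the genes. Sequence was read from mm9 on the strand of the gene, 5' to 3', limited to at most 300 bp of a region and to sequence outside annotated UTRs. Capitals mark CG dinucleotides.
Isl1, chr13:117099897-117100196, minus strand: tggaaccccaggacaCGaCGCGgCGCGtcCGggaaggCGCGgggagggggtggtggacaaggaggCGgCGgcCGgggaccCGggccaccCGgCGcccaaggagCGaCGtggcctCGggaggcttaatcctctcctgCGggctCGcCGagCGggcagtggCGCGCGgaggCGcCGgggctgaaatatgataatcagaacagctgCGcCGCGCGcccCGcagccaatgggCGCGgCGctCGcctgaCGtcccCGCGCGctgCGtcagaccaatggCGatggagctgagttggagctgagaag
Mef2d, chr3:87946597-87946765, plus strand: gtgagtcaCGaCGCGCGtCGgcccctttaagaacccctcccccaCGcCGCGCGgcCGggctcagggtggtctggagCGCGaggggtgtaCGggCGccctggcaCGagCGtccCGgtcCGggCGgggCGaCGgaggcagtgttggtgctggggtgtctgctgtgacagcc
Srf, chr17:46692478-46692777, minus strand: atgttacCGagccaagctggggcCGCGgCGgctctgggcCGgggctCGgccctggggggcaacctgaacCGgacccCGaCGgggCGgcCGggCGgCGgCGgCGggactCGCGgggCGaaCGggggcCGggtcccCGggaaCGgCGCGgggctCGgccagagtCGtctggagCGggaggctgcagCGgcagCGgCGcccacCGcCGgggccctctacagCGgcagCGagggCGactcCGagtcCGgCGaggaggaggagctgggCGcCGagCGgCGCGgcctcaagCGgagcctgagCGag
Nkx2-5, chr17:26976486-26976545, minus strand: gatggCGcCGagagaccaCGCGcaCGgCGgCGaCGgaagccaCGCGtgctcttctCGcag
The Isl1 stretch is the 300 bp upstream of the TSS and holds 41 CG dinucleotides. The Mef2d stretch of 169 bp is the start of the intron after exon 1 and holds 21. The Srf stretch begins at the start of the coding sequence and holds 45. The Nkx2-5 stretch is the whole region of 60 bp and holds 11. The stretches differ in length, and the counts are not ranked.

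Nkx2-5 (ENSMUSG00000015579) is a minus-strand gene at chr17:26975609-26978510 of mm9. Its region, chr17:26976486-26976545, was 60 bp wide, on 1 row, and lay 1.99 kb downstream of the TSS. All 60 bp were coding sequence of exon 2, the last of 2 exons, which runs from 26975609 to 26976592. The region was narrower than the 75-bp reads, and only 2.51% of all regions were this narrow or narrower. With promoters of 2 kb in place of 1 kb on either side, the region would count as a promoter region of Nkx2-5. The next region in the upstream direction, 160 bp wide, lay 216 kb from the Nkx2-5 TSS and was closest to the TSS of Itpr3.

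Isl1 (ENSMUSG00000042258) is a minus-strand gene at chr13:117088478-117099896. Its region, chr13:117099746-117100345, was 600 bp wide, on 2 rows, and spanned the only annotated TSS. Upstream of the TSS lay 449 bp of it, and 151 bp lay in the 5' UTR in exon 1. No other protein-coding gene had a TSS within 100 kb of Isl1. The Isl1 region also stood alone in its neighborhood, with the next regions 910 kb upstream and 1851 kb downstream of the TSS.

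**Figure D2:**
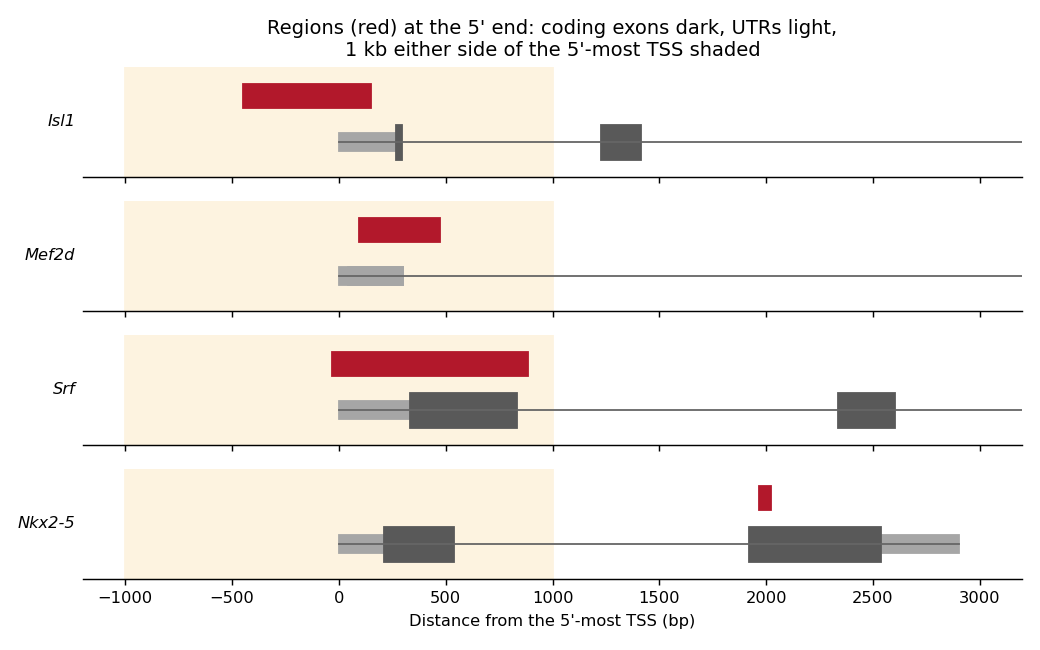
Regions in red above the gene models of Isl1, Mef2d, Srf and Nkx2-5, with distance from the 5'-most TSS in bp on the x axis. Dark boxes are coding exons, light boxes UTRs, and the shading reaches 1 kb either side of the 5'-most TSS. The Isl1 region lies mostly upstream of the TSS, the Mef2d and Srf regions lie mostly downstream, and the Nkx2-5 region lies in the last exon.

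Hand1 (ENSMUSG00000037335, minus strand, chr11:57642207-57646320) had 2 regions within 100 kb, and neither touched the gene. The first, chr11:57615366-57615945, was 580 bp wide and lay 30.7 kb downstream of the Hand1 TSS, 26.3 kb past the end of the gene. It lay in Sap30l, with its midpoint 0.517 kb downstream of the TSS of that gene. The other, chr11:57717206-57718165, was 960 bp wide, on 2 rows, and lay 71.4 kb upstream of the Hand1 TSS in sequence without an annotated gene. The nearest protein-coding TSS, of Gm11003, was 66.4 kb from its midpoint, and the nearest TSS of any kind, of the pseudogene Gm12244, was 23.3 kb away.

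Hand2 (ENSMUSG00000038193) is a plus-strand gene at chr8:59799780-59803314. The nearest region, 820 bp wide and 0.279 kb from the TSS of Mfap3l, lay 3312 kb downstream of the Hand2 TSS. The nearest region on the upstream side lay 9824 kb away. The span of 13.1 Mb between these regions was the fourth longest of the 3453 gaps between neighboring regions, with 3 longer. Unknown bases made up 12.9% of the span, and 27 protein-coding genes including Hand2 had their 5'-most TSS in it. For 95.8% of protein-coding genes the nearest region was as near as that of Hand2 or nearer.

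The MEF2 genes differed among themselves. Mef2d (ENSMUSG00000001419, plus strand, chr3:87946294-87976008) had a region of 380 bp on 1 row, chr3:87946386-87946765. It began 92 bp and ended 471 bp downstream of the 5'-most TSS, and it covered some of the 6 annotated TSSs of the gene. UTR sequence made up 211 bp of it and intron sequence 169 bp. Mef2c (ENSMUSG00000005583, plus strand, chr13:83643033-83806684) had none in the gene, although it is the longest of the 9 genes at 163652 bp. Its region, chr13:83870386-83870605, was 220 bp wide, on 1 row, and lay 227 kb downstream of the 5'-most TSS and 63.7 kb past the end of the gene. That region lay in an intron of the lincRNA C130071C03Rik, 1.31 kb upstream of the TSS of another lincRNA, Gm17547, and no protein-coding TSS was closer than that of Mef2c.

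For Mef2a (ENSMUSG00000030557, minus strand, chr7:74376049-74517744), the nearest region lay 387 kb upstream of the TSS. It was 380 bp wide and lay 0.0145 kb from the TSS of Synm. On the other side the next region was 985 kb away, at Lrrk1. Thus 1 of these 3 MEF2 genes had a region at a promoter. At Mef2b, taken from the list of paralogues, the nearest region was 200 kb from the TSS.

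Srf (ENSMUSG00000015605, minus strand, chr17:46683788-46693111) had the widest region overlapping any of the 9 genes. This region, chr17:46692226-46693145, was 920 bp wide, on 2 rows, and wider than or as wide as 87.0% of all regions. It spanned the only annotated TSS, with 34 bp upstream, 334 bp in UTR, 501 bp of coding sequence and 51 bp of the intron after exon 1. It also lay in the span of the lincRNA Gm16736, which runs on the plus strand from 46608450 to 46962170 across Srf. The other region within 100 kb of Srf, chr17:46766146-46767245, was 1100 bp wide, on 2 rows, and lay 73.6 kb upstream. It spanned the TSS of Ptk7, which was 0.243 kb from its midpoint, and 7 protein-coding genes other than Srf had a TSS in this window.

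Myocd (ENSMUSG00000020542, minus strand, chr11:64990063-65083491) had 7 distinct annotated TSSs and no region within 1 kb of any of them. Its pair of upstream regions lay in introns of the noncoding gene Gm12295, 8.14 kb apart between midpoints, with the Myocd TSS as the nearest protein-coding TSS of both. The nearer of them, 25.8 kb from the TSS, was 740 bp wide on 2 rows, and the farther, 33.9 kb from the TSS, was 100 bp wide on 1 row. Counting noncoding genes, a TSS of Gm12295 was closer, 7.96 kb from the midpoint of the nearer region and 16.1 kb from that of the farther. On the other side of the Myocd TSS, the next region was 427 kb away.

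In order of distance from the 5'-most TSS to the midpoint of the nearest region, the genes were Isl1 (0.15 kb), Mef2d (0.28 kb), Srf (0.43 kb), Nkx2-5 (1.99 kb), Myocd (25.8 kb), Hand1 (30.7 kb), Mef2c (227 kb), Mef2a (387 kb) and Hand2 (3312 kb). The share of protein-coding genes with a region as near or nearer was 3.02% at Isl1, 5.83% at Mef2d, 7.91% at Srf and 11.3% at Nkx2-5. It was 17.6% at Myocd, 81.0% of protein-coding genes had a nearest region farther away than that of Hand1, and at Mef2c, Mef2a and Hand2 it was above 50%. The median distance was 25.8 kb over the 9 genes and 174 kb over all protein-coding genes. Region ends lay on a grid of 20 bp, and the error of these distances between libraries is not known, so that the order among Isl1, Mef2d and Srf is given without one.

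**Figure D3:**
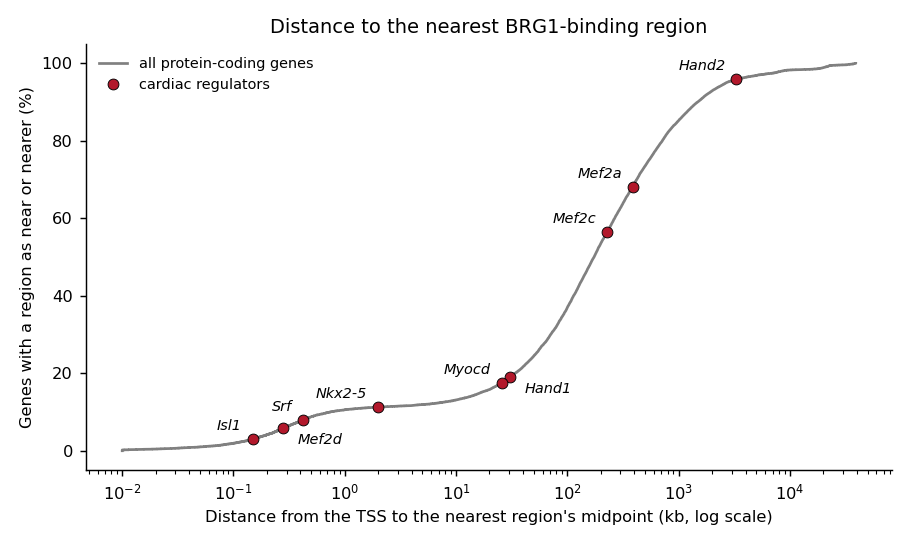
Distance in kb (log scale) from the TSS to the midpoint of the nearest region, against the percentage of protein-coding genes with a region as near or nearer. The grey line is all 22350 protein-coding genes, with distances below 0.01 kb drawn at 0.01 kb, and red points are the 9 genes. Isl1, Mef2d, Srf and Nkx2-5 sit at or below 11.3%, and Hand2 sits at 95.8%.

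Absence of a region at a promoter was set against the annotation and against the sequence. RefSeq promoters of GRCm38.p6 were held for 7 of the 9 genes, all but Hand1 and Myocd, and their sequences matched mm9 at 9 start sites. Of these, 7 fell on the same base as an annotated TSS used here. The other starts, both of Mef2c, lay 1321 and 48789 bp from one, and no region lay within 1 kb of either. The promoters of Nkx2-5, Hand1, Hand2 and Myocd consisted entirely of 75-bp words that occur once in mm9. At Mef2a 97.8% of such words occurred once, and at Mef2c 95.5%, where the other 174 words held unknown bases.

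Promoters of the 9 genes also differed in base composition, which was measured in 500 bp on either side of the 5'-most TSS. A promoter was called CpG-rich when GC was at least 50% and the ratio of observed to expected CpG at least 0.6. Such promoters were found at Isl1 (CpG ratio 0.774), Hand2 (0.743), Mef2a (0.888), Mef2d (0.840) and Srf (0.823). Of these 5 genes 3 had a region at a promoter, and among all protein-coding genes with a CpG-rich promoter 23.2% did. The promoters of Mef2c (0.296), Hand1 (0.339), Myocd (0.552) and Nkx2-5 (0.593) were below that ratio, and none of the 4 had a region at a promoter, where 3.03% of the other protein-coding genes did. The Nkx2-5 promoter missed the threshold narrowly. This split was chosen after the data had been seen.

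The 10 regions had widths from 60 to 1100 bp with a median of 590 bp, and the median over all distinct regions was 360 bp, with quartiles at 160 and 660 bp. For the 7 regions whose nearest protein-coding TSS was the gene's own, the median was 380 bp. Any annotated promoter, including those of Sap30l and Ptk7, was touched by 5 of the 10 regions, and 73.9% of all distinct regions lay at promoters. In the 300 bp at the center of each region, GC was 78.0% at Mef2d, 78.0% at Srf, 72.3% at Isl1 and 67.0% at Nkx2-5, where the median was 73.3% over regions at promoters. The upstream regions of Myocd were at 46.3% and 49.7%, below the median of 53.0% over regions away from promoters. The Mef2c region, although away from annotated promoters, had a GC of 75% and a CpG ratio of 0.806, where the median CpG ratio was 0.903 at promoters and 0.277 elsewhere. In this respect the Mef2c region lay among the promoter regions, as the plot of base composition shows. The exonic Nkx2-5 region was also away from promoters, with a GC of 67.0% and a CpG ratio of 0.925.

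**Figure D4:**
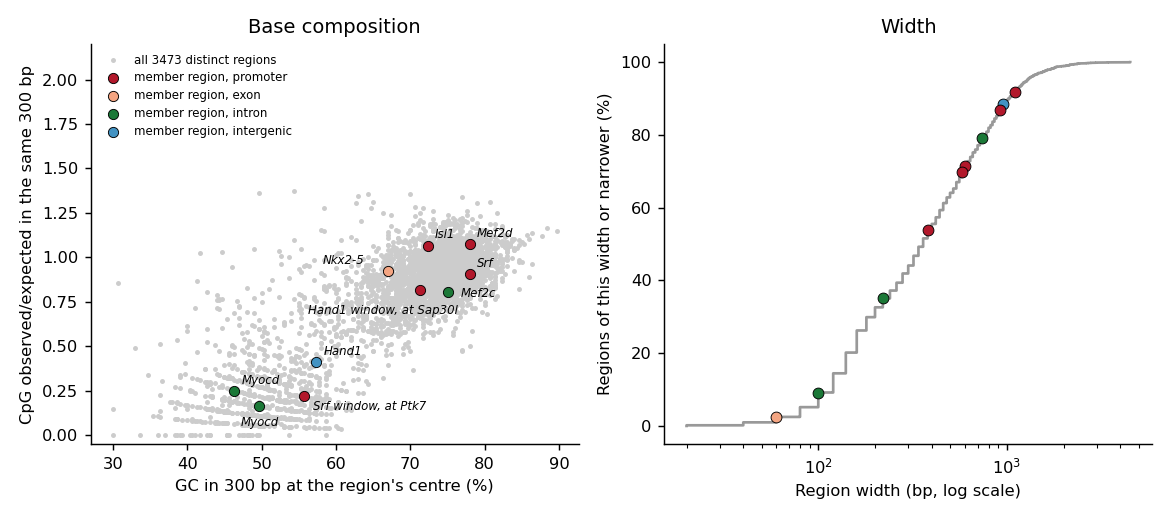
Left, GC in percent against the ratio of observed to expected CpG in 300 bp at the center of each region, with all 3473 distinct regions in grey and the 10 regions of the cardiac regulators coloured by their place (promoter of any gene, exon, intron, intergenic). Right, share of all regions of a given width or narrower against width in bp (log scale), with the same 10 regions as points. The Myocd regions have a GC below 50%, the Isl1, Mef2d, Srf, Nkx2-5 and Mef2c regions lie between 67.0% and 78.0%, and widths run from 60 bp at Nkx2-5 to 1100 bp at Ptk7.

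The regions away from promoters at Myocd, Hand1 and Mef2c are shown next, since their base composition and words differ from one to another. The Hand1 stretch was placed around a GATA word and not at the center of its region, where the 300 bp hold none. In the first 3, capitals mark the GATA word AGATAA, which reads TTATCT on the strand shown, and in the Mef2c region they mark CG dinucleotides.
Myocd, chr11:65109146-65109445, minus strand: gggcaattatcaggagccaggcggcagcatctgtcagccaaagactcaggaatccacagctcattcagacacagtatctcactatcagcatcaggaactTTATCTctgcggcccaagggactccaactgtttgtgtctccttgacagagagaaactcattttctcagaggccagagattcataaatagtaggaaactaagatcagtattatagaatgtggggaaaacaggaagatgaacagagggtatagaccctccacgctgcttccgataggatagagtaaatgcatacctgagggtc
Myocd, chr11:65117386-65117485, minus strand: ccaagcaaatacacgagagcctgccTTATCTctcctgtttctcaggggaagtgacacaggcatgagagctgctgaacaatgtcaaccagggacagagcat
Hand1, chr11:57717743-57718042, minus strand: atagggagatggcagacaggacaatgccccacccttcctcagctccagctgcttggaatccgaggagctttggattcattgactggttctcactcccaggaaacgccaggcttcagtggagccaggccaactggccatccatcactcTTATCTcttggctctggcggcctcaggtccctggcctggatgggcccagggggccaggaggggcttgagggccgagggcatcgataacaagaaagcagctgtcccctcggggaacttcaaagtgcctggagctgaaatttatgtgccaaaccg
Mef2c, chr13:83870386-83870605, plus strand: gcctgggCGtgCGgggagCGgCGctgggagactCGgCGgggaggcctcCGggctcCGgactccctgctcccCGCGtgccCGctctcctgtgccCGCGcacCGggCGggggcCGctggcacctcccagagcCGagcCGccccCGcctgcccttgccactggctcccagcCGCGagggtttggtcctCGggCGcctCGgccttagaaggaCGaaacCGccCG
The Mef2c region holds 27 CG dinucleotides in 220 bp, and the Myocd stretches hold 4 in 300 bp and 1 in 100 bp. In both Myocd regions and in the Hand1 stretch the GATA word reads TTATCT on the gene's strand, while a further copy in the Hand1 region, outside the stretch shown, has the opposite orientation.

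Words of cardiac factors were searched on both strands in the 300 bp at the center of each region. The word AGATAA stands for GATA factors, while T-box factors are represented by the word AGGTGT. For the NK family the word was TNAAGTG, and for helix-loop-helix factors it was the E-box CANNTG. A homeodomain word, TAATTA, was searched along with the MEF2 box and the CArG box of SRF. The E-box and the homeodomain word read the same on both strands. The MEF2 and CArG boxes can contain the homeodomain word, and the NK word with C at its open position contains an E-box. AGATAA occurred in 2 of the 10 windows, both of Myocd, where 8.72% of the windows at all regions and 25.4% of those at the 907 regions away from promoters held it. The word lay 48 bp from the midpoint of the nearer Myocd region and 22 bp from that of the farther one. Over the regions as listed, 4 of 10 held it, those of Isl1, Hand1 (the region 71.4 kb upstream) and both of Myocd. The share was 10.1% of all regions and 24.9% of those away from promoters, while the Isl1 region lay at a promoter. In that order the 4 regions were 600, 960, 740 and 100 bp wide. The median width was 360 bp over all regions and 200 bp over those away from promoters, so that the lengths searched differ. In the Isl1 region the word lay just downstream of the TSS, in the 5' UTR.

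TNAAGTG occurred in 1 window, that of the farther Myocd region but outside the region as listed. Of all windows 6.13% held it, and of those away from promoters 13.2%. CANNTG occurred in 6 of the 10 windows and in 56.2% of all windows. The windows of Myocd held 2 and 4 such words, those of Nkx2-5, Isl1 and Srf 1 each, and the window 71.4 kb upstream of Hand1 held 2. The T-box word was in none of the 10 windows, in 8.64% of all windows and in 15.1% of those away from promoters. None of the 10 held the homeodomain word, the MEF2 box or the CArG box, which were in 1.73%, 1.18% and 0.518% of all windows. Away from promoters these shares were 4.74%, 2.54% and 1.21%. A match is a run of letters and does not show that a factor was bound.

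Paralogues, protein partners and regulators, and target genes of the 9 factors were examined as a list of 37 genes. A region at a promoter was found for 10 of the 37 genes, where 11.9% of all protein-coding genes had one. Among 10 paralogues these were Mkl1 and Mkl2, which encode the myocardin-related coactivators of SRF, with regions of 140 and 740 bp. None of the paralogues of Nkx2-5 (Nkx2-1, Nkx2-2, Nkx2-3, Nkx2-4, Nkx2-6 and Nkx2-9) had a region at a promoter, nor did Isl2 or Mef2b. The nearest of them was Nkx2-3, with a region 4.03 kb from its TSS.

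Among 18 partners and regulators, 8 had a region at a promoter, which at Ldb1, Lmo4 and Hdac7 was that of a TSS other than the 5'-most. The share over all protein-coding genes was 11.9%, and the base composition of these 18 promoters was not taken into account. Ldb1 and Lmo4, which encode partners of LIM-domain proteins, had regions of 120 and 340 bp, while Ldb2, the paralogue of Ldb1, had its nearest region 573 kb away. Tcf3 and Tcf12, which encode E proteins that pair with HAND factors, had regions of 100 and 1060 bp, while Tcf4, another E protein gene, had its nearest region 709 kb away. Twist1, a helix-loop-helix gene, had a region of 600 bp. Of the class IIa histone deacetylases, which bind MEF2 proteins, Hdac7 had a region of 220 bp at an annotated TSS and Hdac4, Hdac5 and Hdac9 had none at a promoter. Fhl2 and Elk4, whose products act with SRF, had regions of 160 and 180 bp. Elk1, which encodes another partner of SRF, lies on chromosome X and had none at a promoter, with its nearest region 7878 kb away. Fhl2 and Elk4 lie on chromosome 1, and how densely regions lay on each chromosome was not compared. The inhibitor of DNA binding genes Id1, Id2 and Id3 had none at a promoter, and their nearest regions lay 28.5, 2.81 and 8.53 kb from the TSS. Hopx, a homeodomain-only gene, had none either, with the nearest region 15.4 kb away.

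Of the 9 target genes, which encode natriuretic peptides (Nppa and Nppb), contractile and smooth muscle proteins (Actc1, Acta2, Tagln and Cnn1), a muscle methyltransferase (Smyd1), an ankyrin repeat protein (Ankrd1) and a growth factor (Fgf10), none had a region at a promoter or in the gene. Among all protein-coding genes 11.9% had a region at a promoter and 12.3% in the body, and none of 9 is near these shares. A region lay within 100 kb of 4 of the 9, Nppa, Nppb, Tagln and Cnn1, a share near the 40.4% of all protein-coding genes. Nppa and Nppb shared a region, for which the TSS of Plod1 was nearest. For the regions of Tagln and Cnn1 the nearest TSSs were those of Sidt2 and Elavl3. The median distance from the TSS to the nearest region was 118 kb over the targets, 10.8 kb over the partners and regulators and 157 kb over the paralogues.

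**Figure D5:**
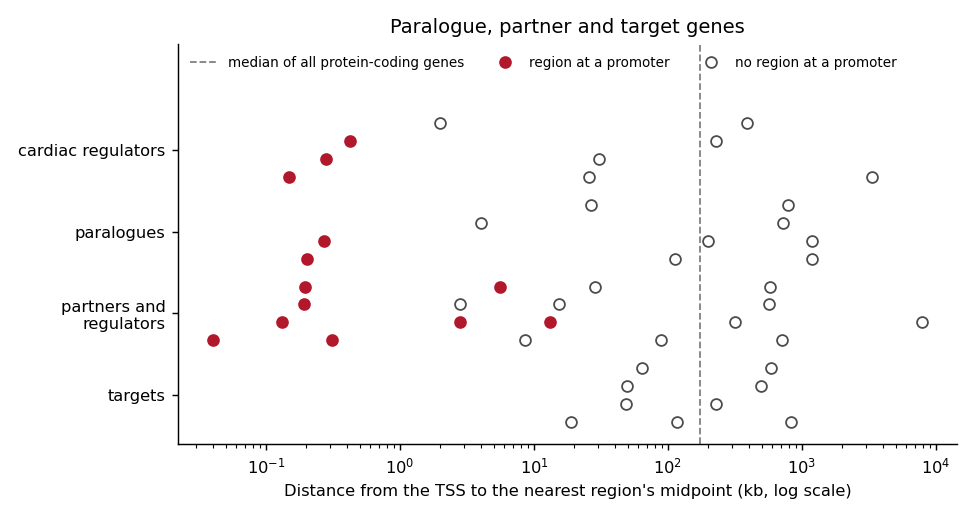
Distance in kb (log scale) from the TSS to the midpoint of the nearest region for the 9 cardiac regulators and for 10 paralogues, 18 partners and regulators and 9 targets. Each point is a gene, filled where a region lay within 1 kb of any annotated TSS, and points are spread vertically only to be seen apart; the dashed line is the median of all protein-coding genes, 174 kb. Filled points occur in each group but the 9 targets, where 11.9% of all protein-coding genes had a region at a promoter.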

How the data were processed

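BRG1 ChIPseq was measured in 12 libraries, of which the list of wild-type CPs was used here, with 2 BRG1 ChIP libraries and 1 input library behind it. The authors used fastq-mcf to trim single-end reads of 75 bp and Bowtie to align them to mm9, required a mapping quality of 30, and took bins with statistical enrichment against the input library. They deposited 3 columns, the chromosome, start and end in bp. How the 2 libraries were combined, and the versions of the tools, are not given in the sources used here. The paper gives the number of rows as its number of CP sites and the number of distinct regions as its number of CM sites, and the list is described here as CP sites because its label says so.

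Starts were read as counted from 0 and printed counted from 1. The 4791 rows named 3473 distinct regions, which were set against GENCODE release M1 and the mm9 sequence with Python 3.11.15, numpy 2.4.6, scipy 1.17.1, numba 0.67.0 and matplotlib 3.10.9. Positions were counted as at a promoter within 1 kb of any annotated TSS of the gene, in the body, or within 100 kb of the gene, with any overlap. The members and lists were chosen with earlier results of these data known, and no test was made. All members are named, other genes only as the nearest or overlapping gene of a region or from the list of 37 genes. The counting was checked on simulated lists.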

Additional observations from a re-analysis of the deposited data

How the results depend on the processing

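The 17 results were each computed again with other settings, 64 in all, including 3 chosen after seeing the data. Of these, 40 stayed within a factor of 1.5 or within the 95% interval of a share, and 24 moved, 18 of them downward. The count of 3 genes with a region at a promoter ranged from 2 to 4 under its alternatives, 2 with regions on more than 1 row and 4 with promoters of 2 or 5 kb. Regions on more than 1 row left 2 genes with a region in the body, 4 genes and 5 regions within 100 kb, and shares of all protein-coding genes of 3.20% at promoters, 3.24% in the body and 10.8% within 100 kb. Regions of 200 bp or wider gave 9.13%, 9.28% and 31.2%, with 3, 3 and 6 of the 9 genes. The region of Nkx2-5 is narrower than that. Without its promoters the gene body held a region in 1 of the 9 genes and in 1.85% of protein-coding genes. For the body the midpoint rule gave 3 of the 9 genes and 11.1% of protein-coding genes. For promoters the share was 12.9% with 5 kb on either side, 10.9% with the 5'-most TSS and 23.2% for CpG-rich promoters. For the body it was 21.3% for genes of 20 kb or longer and 5.43% for shorter genes. Windows of 50 and 200 kb, and of 100 kb around the TSS, gave 28.5%, 55.6% and 37.0%. The median width was 380 bp for regions whose nearest protein-coding TSS was the gene's own. AGATAA was in 5 of 10 windows of 500 bp, where 12.3% of such windows at all regions held it, and in 4 regions as listed, and TNAAGTG in 0 regions as listed. The 12.3% was not split by class of region. In windows of 300 bp, AGATAA was in 25.4% of those away from promoters and 2.84% of those at promoters. The windows and subsets differ by construction in the sequence or regions they admit.

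No paired analysis was possible because both ChIP libraries are represented by 1 set of coordinates, and leaving out a library was not run for that reason. With depth unknown, a gene without a listed region is not shown to be unbound.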
